A study of Mus musculus with 229 samples.

Results

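The genes described are the subunits and receptors through which cells respond to glutamate and GABA, taken as every gene row whose symbol begins with Gria, Grin1 to Grin3, Grik, Grid or Grm followed by a digit, Gabr or Gabbr. The symbol rule found 49 genes among the 49268 symbols of the single-cell tables. They are 4 AMPA subunits, 8 NMDA entries, 5 kainate subunits, 3 delta entries, 8 metabotropic glutamate receptors, 19 GABA-A subunits and 2 GABA-B subunits. A pair of them are not receptor subunits and came in by name: Grin1os, a non-coding transcript opposite Grin1, and Grid2ip, a protein that binds the delta receptor. Rows were present for 43 of the 49 in the dpi 25 tumour table, 49 in the dpi 35 tumour table, 47 in the PDGFRa-GFP Drop-seq table, 48 in the hGFAP-GFP Drop-seq table and all 49 in both C1 tables.

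The study profiled single cells of mouse tumours labelled as glioblastoma of the cortex and of cerebral cortex from young mice of a pair of reporter strains. The tumours gave a Drop-seq library at dpi 25 and a 10x library at dpi 35; the labels do not expand dpi, give no tumour genotype and name no sort. Cortex cells were live GFP-positive cells, from PDGFRa-GFP mice at postnatal days 1 to 3 and from hGFAP-GFP mice at postnatal days 5 to 6 for Drop-seq. Cells were also captured one by one on the C1 system: PDGFRa-GFP gave 53 at P6 and 60 at P3, while hGFAP-GFP gave 61 at P4 and P6 and 49 at P3. GFP follows Pdgfra, the PDGF receptor that marks oligodendrocyte precursor cells (OPCs), in the PDGFRa-GFP strain, and a human GFAP promoter, active in astrocytes and in progenitors, in the hGFAP-GFP strain. The gate therefore decides which cells were seen, and the age of the pups differs with the strain. Open chromatin of PDGFRa-GFP cells at E14.5 and P5 was deposited as 1 pooled list of intervals.

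The droplet libraries held 4955 cells and 11544233 transcript tags (UMIs) at dpi 25, 6054 cells and 51194749 UMIs at dpi 35, 3184 cells and 8166699 UMIs for PDGFRa-GFP, and 815 cells and 4196024 UMIs for hGFAP-GFP. No cell barcode was shared between any of these libraries. Each group is 1 library or 1 C1 set and no animal is named, so no test between groups was possible, and every interval covers counting error only. In the Drop-seq cortex libraries the reporter genes followed the labels. Pdgfra was at 141 CPM in the PDGFRa-GFP library and 88.4 CPM in the hGFAP-GFP library. Gfap was at 4.53 CPM and 56.2 CPM in those 2 libraries. CPM are UMIs scaled to a common total per library, not per transcript length. In the C1 sets Gfap followed the titles, but Pdgfra did so only in part. Mean Pdgfra in TPM (scaled for transcript length) was 37.7 at P3 and 152 at P6 in PDGFRa-GFP cells. In hGFAP-GFP cells it was 108 at P3 and 130 at P4 and P6. Gfap averaged 0.0062 and 5.08 TPM in those PDGFRa-GFP sets, and 204 and 76.4 TPM in those hGFAP-GFP sets. In a label field the PDGFRa-GFP cells of C1 are given the other strain, and the chromatin samples disagree between title and fields; titles were followed. In libraries summed over cells, fewer cells of a type and less RNA per cell cannot be told apart.

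Fast excitation is carried by AMPA, kainate and NMDA receptors, which are cation channels of 4 subunits, while metabotropic glutamate receptors act through G proteins. GABA-A receptors are chloride channels of mixed subunits and GABA-B receptors are G protein coupled pairs of Gabbr1 and Gabbr2. OPCs are known to receive synapses from neurons through AMPA and GABA-A receptors, astrocytes carry metabotropic glutamate receptors, and glioma cells can receive glutamatergic input.

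The receptor genes as a whole gave 923 CPM at dpi 25, 408 CPM at dpi 35, 1233 CPM in PDGFRa-GFP cortex and 1097 CPM in hGFAP-GFP cortex. The AMPA subunits supplied most of these UMIs in every one of these libraries but dpi 35. Their summed level was 620 CPM at dpi 25, 188 CPM at dpi 35, 857 CPM in PDGFRa-GFP cortex and 576 CPM in hGFAP-GFP cortex. Metabotropic receptors summed to 121 CPM at dpi 25, 63.6 CPM at dpi 35, 47.1 CPM in PDGFRa-GFP cortex and 154 CPM in hGFAP-GFP cortex. NMDA entries were low at dpi 25, at 12.5 CPM, against 58.7 CPM in PDGFRa-GFP cortex and 57.4 CPM in hGFAP-GFP cortex. At dpi 35 they summed to 16.4 CPM. GABA-A subunits summed to 71.5, 38.7, 86.0 and 122.97 CPM in the same order of libraries, and GABA-B subunits to 23.4, 40.2, 65 and 83.4 CPM. The dpi 35 library was made by another method, so its levels stand beside the others and enter no ratio. At least 20 UMIs were reached by 20 of the 49 genes at dpi 25, 31 at dpi 35, 27 in PDGFRa-GFP cortex and 25 in hGFAP-GFP cortex. The genes below 20 UMIs in each of the 4 libraries were Gabra5, Gabra6, Gabrb2, Gabrd, Gabre, Gabrp, Gabrq, Gabrr1, Gabrr2, Gabrr3, Grin1os, Grin2d, Grin3b, Grm2, Grm4 and Grm8, with Gabrb2 reaching the most, 2.20 CPM in PDGFRa-GFP cortex.

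**Figure D1:**
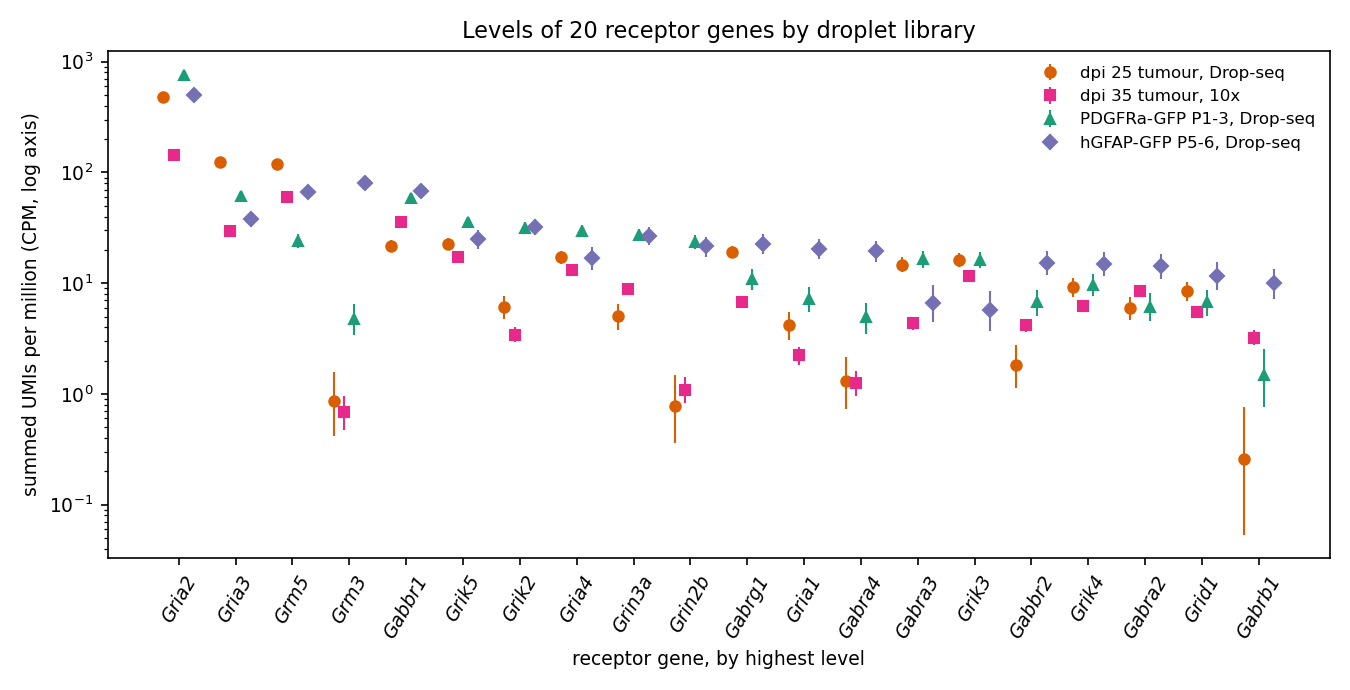
Summed UMIs as CPM (log axis) of 20 receptor genes in the dpi 25 tumour, dpi 35 tumour, PDGFRa-GFP and hGFAP-GFP libraries, with exact Poisson 95% intervals as bars. Gria2 lies between 143 and 759 CPM in the 4 libraries, and Grm3 stands at 80.1 CPM in hGFAP-GFP cortex against at most 4.78 CPM in the others.

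Gria2 encodes the AMPA subunit that, in its edited form, makes the channel nearly impermeable to calcium. It had 5486 UMIs at dpi 25 (475 CPM, interval 463 to 488), 7310 at dpi 35 (143 CPM, 140 to 146), 6196 in PDGFRa-GFP cortex (759 CPM, 740 to 778) and 2104 in hGFAP-GFP cortex (501 CPM, 480 to 523). Its level was thus highest in PDGFRa-GFP cortex, and the dpi 25 and hGFAP-GFP values lay close together. Grm5, a Gq-coupled receptor, was at 119 CPM at dpi 25 (interval 113 to 125), 60.2 CPM at dpi 35, 24 CPM in PDGFRa-GFP cortex (20.8 to 27.6) and 66.7 CPM in hGFAP-GFP cortex (59.1 to 75.0). Grm3, a Gi-coupled receptor, was at 0.87 CPM at dpi 25, 0.68 CPM at dpi 35, 4.78 CPM in PDGFRa-GFP cortex and 80.1 CPM in hGFAP-GFP cortex (71.7 to 89.1). Gabrg1, a GABA-A gamma subunit, was at 19.1 CPM at dpi 25, 6.74 CPM at dpi 35, 10.9 CPM in PDGFRa-GFP cortex and 22.6 CPM in hGFAP-GFP cortex. Gabra3, an alpha subunit, was at 14.7 CPM at dpi 25, 4.36 CPM at dpi 35, 16.4 CPM in PDGFRa-GFP cortex and 6.67 CPM in hGFAP-GFP cortex.

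The promoters of 4 of these genes are shown because they differ most plainly in the feature that capitals mark, the CG dinucleotide, and in whether an authors' open interval of PDGFRa-GFP cells meets them. Each is the 250 bases before a RefSeq start on GRCm38.p6 (mm10), read 5′ to 3′ on the gene's own strand, and all 4 genes are on the minus strand. The Gria2 window, chr3:80802836-80803085, has 19 CG and meets an interval of 10.6-fold signal over background in the authors' list. The Grm3 window, chr5:9725353-9725602, has 8 CG and meets an interval of 3.03-fold. The Gabrg1 window, chr5:70842618-70842867, has 1 CG, and its nearest interval, of 5.56-fold, meets the 50 bases after the start. The Gabra3 window, chrX:72656808-72657057, has 0 CG and meets no interval.
Gria2: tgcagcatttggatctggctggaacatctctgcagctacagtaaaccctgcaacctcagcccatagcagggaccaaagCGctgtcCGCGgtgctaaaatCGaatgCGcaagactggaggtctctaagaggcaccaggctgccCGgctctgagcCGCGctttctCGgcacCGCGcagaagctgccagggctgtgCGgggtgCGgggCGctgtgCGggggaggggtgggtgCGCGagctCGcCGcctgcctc
Grm3: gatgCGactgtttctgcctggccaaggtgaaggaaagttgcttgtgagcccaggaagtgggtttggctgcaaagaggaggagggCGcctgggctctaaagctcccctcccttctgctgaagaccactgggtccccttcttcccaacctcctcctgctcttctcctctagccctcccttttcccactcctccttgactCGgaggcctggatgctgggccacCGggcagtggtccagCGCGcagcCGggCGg
Gabrg1: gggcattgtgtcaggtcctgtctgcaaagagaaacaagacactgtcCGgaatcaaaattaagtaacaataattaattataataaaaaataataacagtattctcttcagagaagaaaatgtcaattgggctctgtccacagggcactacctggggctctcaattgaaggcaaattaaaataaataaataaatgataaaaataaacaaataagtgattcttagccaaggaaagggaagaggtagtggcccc
Gabra3: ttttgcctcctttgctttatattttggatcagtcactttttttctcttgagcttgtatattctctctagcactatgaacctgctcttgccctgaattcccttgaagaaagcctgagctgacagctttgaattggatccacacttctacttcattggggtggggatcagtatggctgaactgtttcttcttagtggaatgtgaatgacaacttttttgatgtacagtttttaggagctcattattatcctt

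Windows were found for 34 of the 49 genes, 42 windows in all; among those without one are Gabrd, Gria1, Gria3, Grid1, Grik1, Grin2a, Grin2b, Grin3a, Grm4 and Grm5. The motif searched was CG, which reads the same on both strands. It was present in 95.2% of the receptor windows and in 92.2% of all 32619 windows, with a median of 9 CG per receptor window against 6 in all. Of the 34 genes, 23 (67.6%) had a window, extended to 50 bases past the start, that met an open interval, against 44.9% of 26794 genes. Those 26794 genes and the 32619 windows were not limited to protein-coding genes, so the shares are not over like genes. Counting both gene ends, 39 of the 49 receptor genes (79.6%) had an interval within 1 kb, against 62.7% of 21631 protein-coding genes. Among the 10 without one were Gabra3, Gabra6, Gabrp, Gabrr1, Gabrr2, Gabrr3, Grid2ip, Grin2c and Grm6. Gabra4 and Gabrb1 start on opposite strands within 1 interval of 6.57-fold, chr5:71657312-71658527. Grik2, a kainate subunit, had a window of 20 CG with an interval of 10.1-fold. The list pools E14.5 and P5 cells of a sorted mixture, so an interval cannot be assigned to a class of cells or to a stage.

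Clusters were made in each library without the receptor genes and named from marker lists, so that the receptors did not choose the classes. In PDGFRa-GFP cortex 556 cells were OPC-like, 516 primitive OPC-like, 971 interneuron-like, 714 cycling-like, 53 ependymal or choroid plexus-like, 42 oligodendrocyte-like, 37 astrocyte-like and 34 excitatory neuron-like. In hGFAP-GFP cortex 115 cells were astrocyte-like, 84 OPC-like, 121 interneuron-like, 82 excitatory neuron-like and 60 ependymal or choroid plexus-like. In the tumours no cluster at dpi 25 met the rule for the name OPC-like. There, 4394 cells (88.7%) lay in clusters called OPC-marker clusters below, with Olig2 at 200 CPM or more. Their summed OPC markers also exceeded each of the myeloid, endothelial, pericyte or fibroblast, oligodendrocyte, ependymal or choroid plexus and general neuron lists. Among the lists not compared were astrocyte, radial glia, primitive OPC and cycling. In the whole dpi 25 library radial glia markers (4864 CPM) and cycling markers (4317 CPM) summed above OPC markers (2981 CPM). These 4394 cells are 2190 cycling-like, 1301 unnamed and 689 radial glia-like cells and a cluster of 214 cells named astrocyte-like. The rule was set after the clusters had been seen. At dpi 35, 922 cells were OPC-like, 2075 lay in OPC-marker clusters and 1880 were microglia or macrophage-like.

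**Figure D2:**
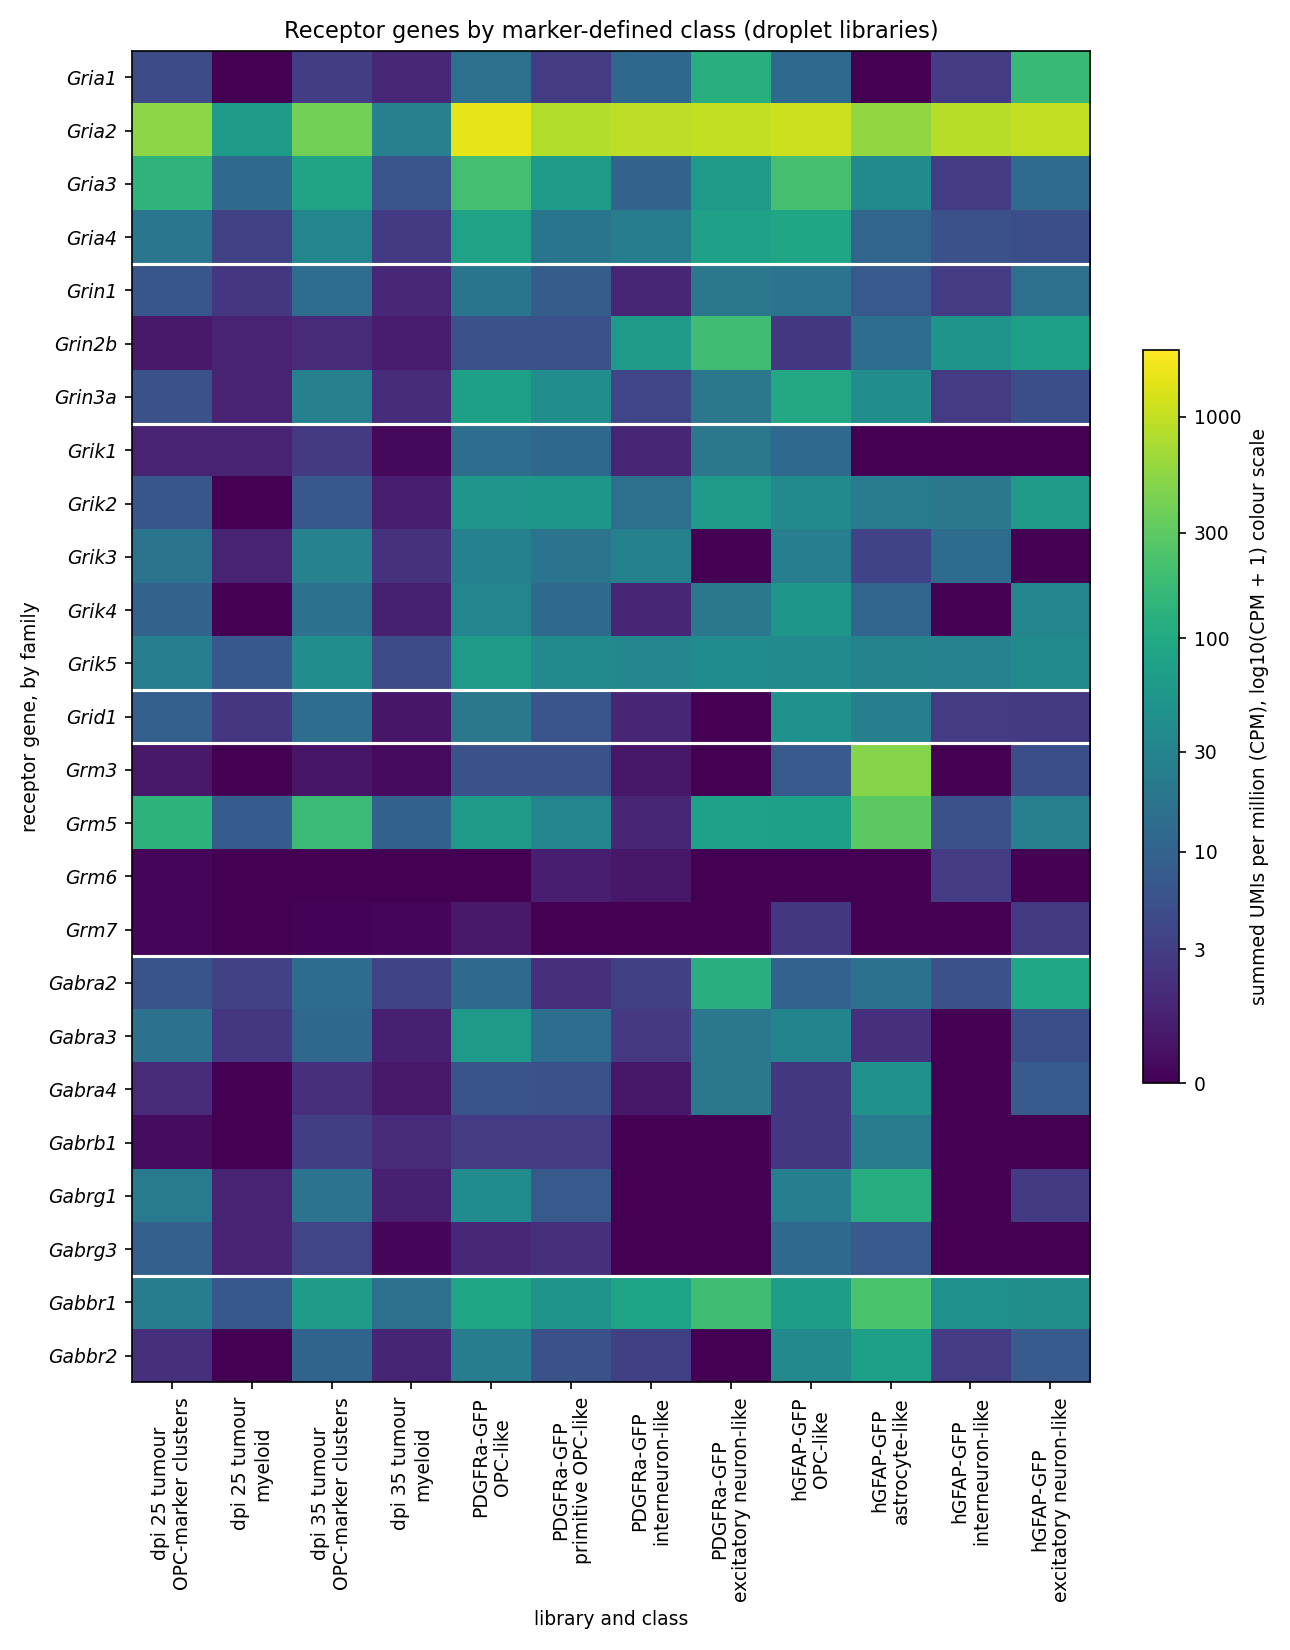
Heat map of receptor gene levels, as log10 of CPM + 1, in 12 library and class columns, with genes in rows by receptor family. Gria2 is high in every neural column and lower in the myeloid ones, Grm3 is high in the astrocyte-like column of hGFAP-GFP cortex, and Grin2b is highest in the neuron-like columns.

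Many receptor genes stood at higher levels in OPC-like cells of PDGFRa-GFP cortex than in the interneuron-like cells of the same library. Among them Gria3, Grin3a, Grm5, Gabra3 and Gabrg1 were far higher, Gria2 was high in both, and Grin2b was lower. Of 23 receptor genes with at least 20 UMIs over both classes, 14 were higher past 2-fold with an interval that leaves out 1, against 21.4% of the 9988 genes tested. A further 2 were lower, against 10.4% of genes. The median log2 ratio was 1.97 for the 23 genes and 0.16 for all genes. The other receptor genes had too few UMIs.

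Among AMPA subunits, Gria2 stood at 1530 CPM in OPC-like cells (interval 1466 to 1595), against 947 CPM in interneuron-like cells, a log2 ratio of 0.69 that did not pass 2-fold. Primitive OPC-like cells had 843 CPM. With each cell thinned at random to 1000 UMIs and shallower cells set aside, Gria2 was seen in 73.7% of OPC-like cells and 54.8% of interneuron-like cells, and before in 89.4% and 64.9%, at median depths of 2395.5 and 1444 UMIs. Gria3, a subunit of the same channel, stood at 205 CPM in OPC-like cells and 10.2 CPM in interneuron-like cells, a log2 ratio of 4.32 (interval 3.60 to 5.15). Gria4, known from fast-gating channels, was also higher, with a log2 ratio of 1.68, and reached 201 CPM in the 42 oligodendrocyte-like cells of this library.

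The NMDA subunits split between the classes. Grin3a, a glycine-binding subunit that lowers calcium entry when it joins the receptor, was at 73.8 CPM in OPC-like cells and 3.8 CPM in interneuron-like cells, a log2 ratio of 4.27 (3.10 to 5.75). Grin2b, the glutamate-binding subunit of young neurons, ran the other way, with 5.6 CPM in OPC-like cells and 57.5 CPM in interneuron-like cells, a log2 ratio of -3.37 (-4.62 to -2.33). The 34 excitatory neuron-like cells had 193 CPM of Grin2b. Grin1, the subunit every NMDA receptor needs, had a log2 ratio of 3.82.

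Kainate and delta genes were also unequal between these classes. Grik4 (log2 ratio 4.65), Grik1 (3.52) and Grik2 (1.75) were higher in OPC-like cells, whereas Grik3 (0.02) and Grik5 (0.94) did not pass the rule. Grid1, a delta receptor gene, had a log2 ratio of 3.93. Grid2ip was lower in OPC-like cells, at -1.64.

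Grm5 was the only metabotropic receptor with enough UMIs for this comparison, at 66.1 CPM in OPC-like cells and 1.3 CPM in interneuron-like cells, a log2 ratio of 5.69 (3.80 to 8.76). Among GABA-A subunits, Gabra3 was at 57.8 CPM in OPC-like cells, with a log2 ratio of 4.5 over interneuron-like cells. Gabrg1 was at 37.6 CPM in OPC-like cells and had 0 UMIs in interneuron-like cells, so its log2 ratio was at least 4.29, set against a floor of 3 UMIs in the class. Gabra2, another alpha subunit, had a ratio of 1.97. Of the GABA-B pair, Gabbr1 was even between the classes, with 86.3 CPM in OPC-like cells and 82.4 CPM in interneuron-like cells, and Gabbr2 was higher in OPC-like cells, at a log2 ratio of 2.89. Scaling by the median ratio would lower every log2 ratio of this comparison by 0.16. With cells thinned to 1000 UMIs, which leaves fewer UMIs to count, Gabra2 (1.63), Grid1 (2.50), Grik1 (1.36), Grin1 (1.63) and Grid2ip (-0.79) were among those that no longer met the rule. Gabra2 also lost it at Leiden resolution 0.5 (0.56).

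**Figure D3:**
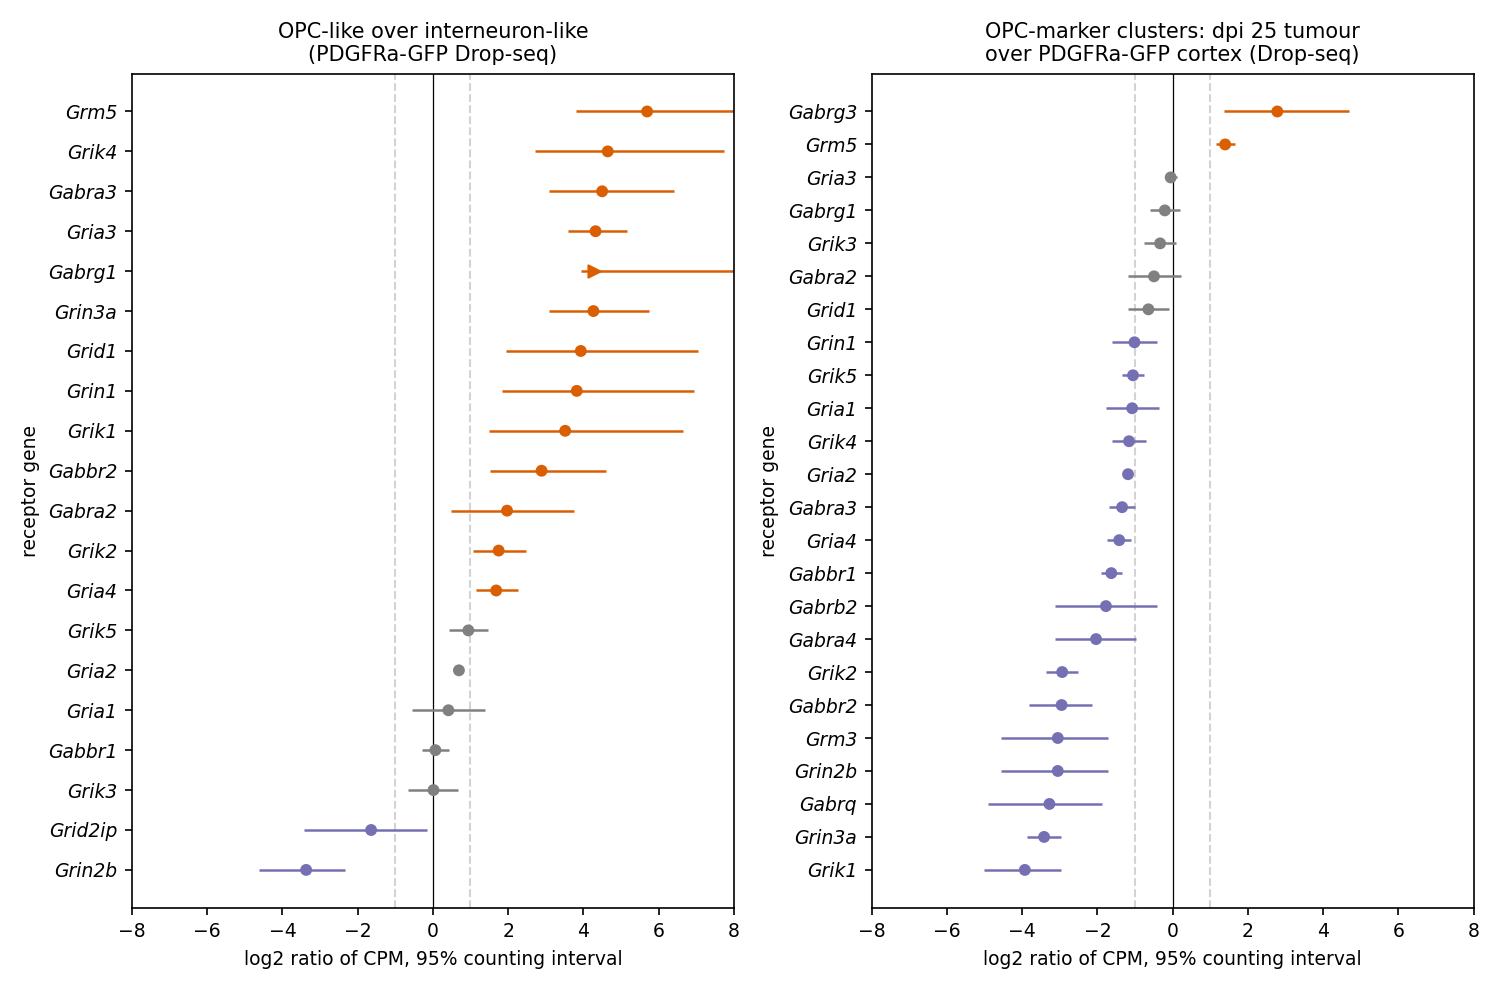
Log2 ratios of CPM for receptor genes, with exact conditional 95% intervals, for OPC-like over interneuron-like cells of PDGFRa-GFP cortex and for OPC-marker clusters of the dpi 25 tumour over those of PDGFRa-GFP cortex; orange is called higher, purple called lower and grey not called, dashed lines mark 2-fold, the axis ends at 8 either way and a triangle marks a lower bound. Grm5 lies on the higher side in both panels, at 5.69 and 1.39, while Grin3a is at 4.27 in the first and -3.42 in the second.

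The C1 values, in TPM, are scaled for transcript length, so that levels of different genes can be set against each other within a strain's table. In the 48 OPC-marker cells of the PDGFRa-GFP table, Gria2 averaged 434 TPM and Gria3 155 TPM, so that Gria2 made up 66.8% and Gria3 23.9% of AMPA subunit TPM. In the 50 interneuron-marker cells Gria2 averaged 246 TPM and Gria3 0.1 TPM, and Gria2 made up 96.4% of the AMPA sum. All 48 OPC-marker cells had Gria2 at 10 TPM or more, against 34 of the 50 interneuron-marker cells. Gria3 reached 10 TPM in 27 of the 48 OPC-marker cells and in 0 of the 50 interneuron-marker cells. In the hGFAP-GFP table, Gria2 made up 92.2% of the AMPA sum in 53 astrocyte-marker cells, 54.1% in 20 OPC-marker cells, where Gria3 gave 36.2%, and 74.4% in 20 interneuron-marker cells, where Gria4 gave 25.3% with 2 cells at 10 TPM or more.

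Of the NMDA sum, Grin3a gave 85.7% in PDGFRa-GFP OPC-marker cells, Grin1 11.7% and Grin2b 2.6%. Grin3a reached 10 TPM in 18 of these 48 cells and Grin1 in 2. A single cell held 61.1% of Grin1, and another share of 98.8% from 1 cell made up Grin2b. In PDGFRa-GFP interneuron-marker cells Grin2b gave 74.9%, with 9 of 50 cells at 10 TPM or more, Grin1 0.3%, and Grin3b 24.7%, all of it from 1 cell. In the hGFAP-GFP table Grin3a gave 61.6% and Grin2b 35.8% in astrocyte-marker cells. In hGFAP-GFP OPC-marker cells Grin3a gave 47.3% and Grin2b 34.9%, of which 98.1% came from 1 of 20 cells. Grin2b gave 99.8% in hGFAP-GFP interneuron-marker cells, with 4 of 20 at 10 TPM or more. Grin2b thus had a share in glial classes of hGFAP-GFP cells as well as in neuronal ones, though from few cells. Of the kainate sum, Grik2 gave 71.0% in PDGFRa-GFP OPC-marker cells and 43.4% in interneuron-marker cells, where Grik5 added 28.9%, 92.7% of it from 1 cell, and Grik3 27.7%. Grik2 also gave 92.6% in hGFAP-GFP astrocyte-marker cells.

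The GABA-A sum also differed in make-up with the class. Gabrg1 was 38.8% of it in PDGFRa-GFP OPC-marker cells, and Gabrg1 was listed at 0 TPM in the 50 interneuron-marker cells. In hGFAP-GFP cells Gabrg1 was 37.1% of the sum in astrocyte-marker cells, with 23.6% from Gabrb1 and 23% from Gabrb2. In hGFAP-GFP interneuron-marker cells Gabrb2 gave 43.5%, with 3 of 20 cells at 10 TPM or more. The 57.6% given by Gabra3 in hGFAP-GFP OPC-marker cells came from 3 of 20 cells. Gabbr1 gave at least 82.9% of the GABA-B sum in each set. These shares rest on few cells per class, and the read depth of the C1 cells is unknown.

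**Figure D4:**
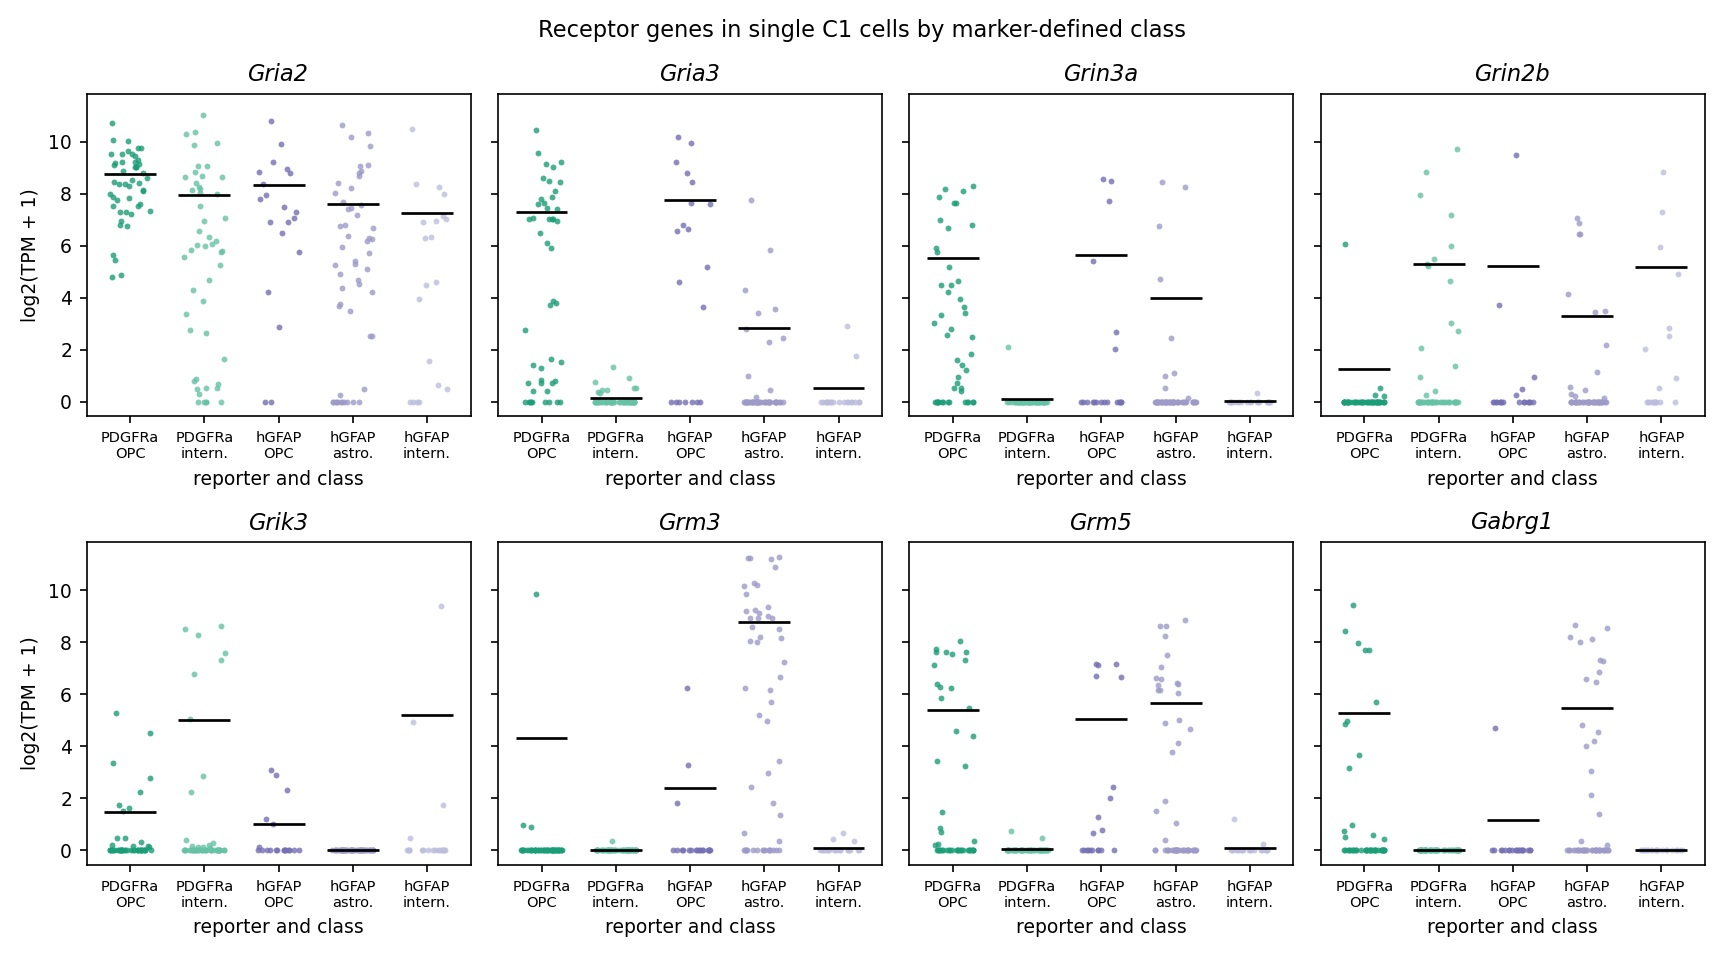
Levels of 8 receptor genes in single C1 cells by marker-defined class, as log2 of TPM + 1, where each point is a cell and bars give log2 of the class mean TPM + 1. Gria3, Grin3a and Gabrg1 reach high values in OPC-marker cells of the PDGFRa-GFP table and average at most 0.1 TPM in its interneuron-marker cells, and Grm3 is high in astrocyte-marker cells of the hGFAP-GFP table, with a mean of 434 TPM.

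Astrocyte-like cells of hGFAP-GFP cortex were marked by metabotropic receptors and by both GABA-B subunits. Grm3 was at 503 CPM in them (interval 446 to 566) and had 0 UMIs in interneuron-like cells, a log2 ratio of at least 5.92. Grm5 was at 291 CPM in astrocyte-like cells and 5.5 CPM in interneuron-like cells, a log2 ratio of 5.71. Gabbr1 was at 233 CPM in astrocyte-like cells, with a log2 ratio of 2.39 (1.64 to 3.24), and Gabbr2 had a ratio of 4.71. Of 11 receptor genes tested, 8 were higher, against 22.4% of 6292 genes, and 1 was lower, against 15.3%. The median log2 ratio was 3.71 for the 11 genes and 0.02 for all genes.

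The others that were higher in these astrocyte-like cells were Grin3a (3.85), Gria3 (3.71), Gabrg1 (at least 3.79, at 114 CPM against 0 UMIs) and Gabra4 (at least 2.56). The lower one was Grin2b, at -1.78, while Gria2 (-0.64) and Grik5 (0.07) were not called. Grm3 was seen in 32.2% of astrocyte-like cells after thinning and 76.5% before. The 37 astrocyte-like cells of PDGFRa-GFP cortex also had Grm3, at 179 CPM, and had Grm5 at 170 CPM. In the C1 table, Grm3 averaged 434 TPM in astrocyte-marker cells, 4.3 TPM in OPC-marker cells and 0.1 TPM in interneuron-marker cells, and Grm3 was 89.4% of the metabotropic sum in astrocyte-marker cells. After thinning, the calls for Gabbr2 (1.3), Gabra4 (1.3), Gabrg1 (1.95), Gria3 (0.07), Grin3a (2.07) and Grin2b (-1.15) were lost.

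A few receptor genes were high in other classes. Grm6, known as the glutamate receptor of retinal ON bipolar cells, was at 20.2 CPM (81 UMIs) in endothelial-like cells of the dpi 35 tumour and 22 CPM (6 UMIs) in those of dpi 25. Gria1 was at 171 CPM in excitatory neuron-like cells of hGFAP-GFP cortex and 116 CPM in those of PDGFRa-GFP cortex. Gabrb1, a beta subunit, was at 60 CPM in the ependymal or choroid plexus-like cells of hGFAP-GFP cortex and 40 CPM in those of the dpi 35 tumour.

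Between the whole cortex libraries, the difference that stood out was Grm3, which was far lower in PDGFRa-GFP cells than in hGFAP-GFP cells. Of 30 receptor genes tested, 6 were higher in PDGFRa-GFP cortex, against 4.21% of 13555 genes, and 9 were lower, against 12.2%. The median was 0.03 for the receptor genes and 0.04 for all genes. Among the higher ones were Grm6 (2.81), Grik3 (1.51, interval 0.87 to 2.20), Grik1 (1.46), Grid2ip (1.36) and Gabra3 (1.3, 0.70 to 1.94). The lower ones were Grm3 (-4.07, -4.59 to -3.59), Gabrg3 (-2.90), Gabrb1 (-2.77), Gabra4 (-2.0), Gria1 (-1.50), Grm5 (-1.48), Gabra2 (-1.22), Gabbr2 (-1.18) and Gabrg1 (-1.05). Gria2 (0.60), Gria3 (0.69), Gria4 (0.81), Grin2b (0.13) and Grin3a (0.02) were not called.

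Class mix moved with this comparison. Interneuron-marker genes summed to 2592 CPM in PDGFRa-GFP cortex and 1307 CPM in hGFAP-GFP cortex, and astrocyte markers to 1127 and 6496 CPM. Without the neuronal, immune, vascular and ependymal or choroid clusters, Gabra2 (-0.22), Gria1 (-0.02) and Grid2ip (0.79) were no longer called, while Grm3 was at -4.14. With cells thinned to 1000 UMIs, Gabra3 (0.22), Grik1 (0.40), Grik3 (0.80), Gabra2 (-0.43), Gabbr2 (-0.59) and Grm5 (-0.90) fell under 2-fold, and Grid2ip, Gabrb1 and Gabrg3 had too few UMIs left or too wide an interval. Within interneuron-like cells alone, 1 of 9 receptor genes tested was higher in PDGFRa-GFP cortex, against 4.80% of 8028 genes, and 0 were lower, against 4.02%. That gene was Gria4, at 2.13 with a wide interval of 0.18 to 5.23, and it was lost on thinning (0.86). Scaling by the median ratio would lower every log2 ratio here by 0.13. Gria2 differed by 0.08 and Grin2b by 0.21 between the interneuron-like cells of these libraries. The part of age, strain and gate in these differences cannot be told apart.

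The dpi 25 tumour had more Gria3 than either cortex library, more Grm5 than PDGFRa-GFP cortex, and less Gabbr1, Gabbr2, Grin2b and Grin3a than either. Among GABA-A subunits 4 of 9 tested were lower than in PDGFRa-GFP cortex and 4 of 8 lower than in hGFAP-GFP cortex, with 1 higher in each. Both comparisons use the same tumour library, and their values are given side by side. Against PDGFRa-GFP cortex, 3 of 30 genes tested were higher, below the 15.7% of 14162 genes, and 14 were lower, against 16.2%, with a median of -0.80 for the receptor genes and -0.01 for all genes. Against hGFAP-GFP cortex, 3 of 26 were higher, below 16.2% of 14189 genes, and 11 were lower, against 20.1%, with medians of -0.58 and 0.01.

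Gria3 was at 124 CPM at dpi 25, 60.9 CPM in PDGFRa-GFP cortex and 37.7 CPM in hGFAP-GFP cortex, with log2 ratios of 1.03 (0.88 to 1.18) over PDGFRa-GFP and 1.72 over hGFAP-GFP cortex. Leaving out the neuronal, immune, vascular and ependymal or choroid clusters of both libraries brought its ratio over PDGFRa-GFP cortex to 0.86, which is under 2-fold. Grm5 had log2 ratios of 2.31 (2.09 to 2.53) over PDGFRa-GFP and 0.83 over hGFAP-GFP cortex. Gabrg3, a gamma subunit, was at 8.32 CPM at dpi 25, 0.73 CPM in PDGFRa-GFP and 5.48 CPM in hGFAP-GFP cortex, with a log2 ratio of 3.50 (2.33 to 4.98) over PDGFRa-GFP cortex. Over hGFAP-GFP cortex, Grik3 (1.49) and Gabra3 (1.14) were the further higher ones, but thinning brought them to 0.82 and 0.17, under 2-fold. Gria2 had ratios of -0.67 over PDGFRa-GFP and -0.08 over hGFAP-GFP cortex and was not called.

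Genes lower at dpi 25 than in PDGFRa-GFP cortex included Grin2b (-4.91, -6.07 to -3.96), Grm6 (-3.05), Grik1 (-2.68), Grid2ip (-2.63), Grm3 (-2.46), Grin3a (-2.44), Grik2 (-2.38), Gabrq (-2.0), Gabra4 (-1.91), Gabbr2 (-1.89), Gabbr1 (-1.43) and Gabrb2 (-1.21). Those lower than in hGFAP-GFP cortex included Grm3 (-6.53), Gabrb1 (-5.27), Grin2b (-4.78), Gabra4 (-3.91), Gabbr2 (-3.07), Grin3a (-2.42), Grik2 (-2.41), Gria1 (-2.30), Gabbr1 (-1.66) and Gabra2 (-1.26). Without the neuronal, immune, vascular and ependymal or choroid clusters, Gria1 (-0.32) and Gabra2 (-0.21) were no longer called against hGFAP-GFP cortex, nor Gabrb2 (-0.97) against PDGFRa-GFP cortex. Interneuron markers summed to 46.7 CPM at dpi 25, against 2592 CPM in PDGFRa-GFP and 1307 CPM in hGFAP-GFP cortex, and Slc32a1, which loads GABA into vesicles, was at 0 UMIs at dpi 25. Grin2b was at 193 CPM in the excitatory neuron-like cells of PDGFRa-GFP cortex, and the part of neurons in the library ratios was not tested.

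OPC-marker clusters of the dpi 25 tumour had more Grm5 and less of most other receptor genes than the OPC-marker clusters of PDGFRa-GFP cortex (4394 against 1168 cells). Of 27 receptor genes tested, 18 were lower, against 16.2% of 12722 genes, and 2 were higher, against 11.0%. The median log2 ratio was -1.19 for receptor genes and -0.10 for all genes. The clusters mix cycling and other cells and are no single cell type. Of the tumour cells, 2190 were cycling-like and none bore the name OPC-like. The tumour cells carry no sort while the cortex cells were gated on GFP.

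Grm5 was at 134 CPM in the tumour clusters and 50.9 CPM in the cortex clusters, a log2 ratio of 1.39 (1.15 to 1.65). Grm5 ran from 87.8 to 231 CPM over the 9 OPC-marker clusters at dpi 25, the top being the astrocyte-like cluster. Over the 3 in PDGFRa-GFP cortex it ran from 30.4 to 66.1 CPM, so that these ranges did not overlap. In the 3 OPC-marker clusters of hGFAP-GFP cortex it ran from 18.1 to 138 CPM, which overlaps the tumour. Those 3 clusters hold 186 cells, while 84 cells of that library were named OPC-like, so they are not all OPC-like. The cluster with the highest Grm5 there also had the highest Grm3, at 130 CPM. In myeloid-like cells of the tumour, which should lack it, Grm5 was seen in 1.1% of cells after thinning and 1.7% before, against 12.7% and 23.4% of OPC-marker cells, at median depths of 2157 and 2042 UMIs. The dpi 35 tumour, on another platform, had Grm5 at 199 CPM in OPC-like cells. There, thinned shares were 19.96% of OPC-like cells and 1.1% of myeloid-like cells. Gabrg3 was the other higher gene, at 2.78.

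Gria2 was at 530 CPM in the OPC-marker clusters at dpi 25, a log2 ratio of -1.19 (-1.25 to -1.13) over those of PDGFRa-GFP cortex. The tumour clusters ran from 376 to 901 CPM, the top being the astrocyte-like cluster, and the cortex clusters from 843 to 1530 CPM, so that these ranges overlapped. Gria3 was even, at -0.05. It ran from 103 to 227 CPM over the tumour clusters, the top again being the astrocyte-like cluster, and from 61.7 to 205 CPM over the cortex clusters. Gria4 (-1.42) and Gria1 (-1.08) were lower in the tumour clusters. Gria2 stood far above the myeloid-like cells of the tumour, which had 62.1 CPM and a thinned share of 4.9%, against 39% of OPC-marker cells.

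Grin3a, the main NMDA transcript per length of the cortex OPC-marker cells, was at 5.6 CPM in the tumour clusters, a log2 ratio of -3.42 (-3.88 to -2.98). It ran from 0 to 14.6 CPM over the tumour clusters and from 40.5 to 73.8 CPM over the PDGFRa-GFP cortex clusters, with no overlap. Over the hGFAP-GFP cortex clusters it ran from 12.2 to 96.6 CPM, which overlaps the tumour. The low end of that range rests on few UMIs of the hGFAP-GFP cluster with Grm3 at 130 CPM. Grin2b (-3.06) and Grin1 (-1.02) were lower too. Among kainate subunits Grik1 (-3.93), Grik2 (-2.94), Grik4 (-1.16) and Grik5 (-1.06) were lower.

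GABA-A subunits that were lower included Gabrq (-3.28), Gabra4 (-2.04), Gabrb2 (-1.78) and Gabra3 (-1.35). Both GABA-B subunits were lower, Gabbr2 at -2.95 and Gabbr1 at -1.63, and so was Grm3, at -3.06. Gabbr1 ran from 11.7 to 68.4 CPM over the tumour clusters, the top being the astrocyte-like cluster, and from 50.6 to 86.3 CPM over the cortex clusters. Gabrg1 (-0.21) was not called. In the dpi 35 OPC-like cells Gabbr1 was at 70.2 CPM, Gria2 at 421 CPM, Gria3 at 89.2 CPM and Grin3a at 25.6 CPM. With the cycling-like clusters left out on both sides, 10 genes were lower in place of 18, and Gria2 (-1.15) and Grm5 (1.42) kept their calls. Under thinning the calls for Gabra4 (-0.93), Gabrb2 (-0.57), Gabrq (-3.57), Grik1 (-3.29), Grin2b (-2.74), Grm3 (-3.74) and Gria1 (-1.06) were lost, and Grin1 came to 0.013. Scaling by the median ratio would raise every log2 ratio here by 0.10 and would bring Gria1 (-0.98), Grik5 (-0.95) and Grin1 (-0.91) under 2-fold.

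In the C1 sets, PDGFRa-GFP cells at P6 had more Gabrg1, Grin3a and Grm5 than cells at P3, and less Grik3. Several other differences rested on 1 or a few cells. The class mix moved with this: 35 of 53 cells at P6 and 13 of 60 at P3 were OPC-marker cells, and 10 and 40 were interneuron-marker cells. Gabrg1 averaged 33.2 TPM at P6 and 5.20 TPM at P3, a log2 ratio of 2.46 on the scale of mean TPM + 1. Grm5 averaged 33 and 11 TPM (1.5) and Grin3a 35.8 and 10.8 TPM (1.64) at P6 and P3. Gria2 averaged 377 ± 349 TPM at P6 and 270 ± 380 TPM at P3 (SD over cells), and 47 cells of each set had it at 10 TPM or more. When cells were averaged on the log2(TPM + 1) scale, which lessens the weight of a few high cells, Grin3a (1.28) and Grm5 (1.18) stayed past 2-fold, Gabrg1 (0.67) did not, and 0 genes were lower.

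Past 2-fold, 14 of the 31 genes with a mean of 1 TPM or more were higher at P6, against 33.9% of 15737 genes, and 5 were lower, against 20.5%, with medians of 0.89 and 0.32. Others that were higher included Gabbr2 (2.82), Grik1 (2.68), Grid1 (2.66), Grin1 (2.60), Gabrr2 (1.97), Grm4 (1.80), Gabra3 (1.24), Gabrb2 (1.22) and Gria1 (1.03). The lower ones included Grin3b (-3.53), Grid2ip (-2.67), Grik3 (-2.38) and Grik5 (-2.25). At P3, all of Grin3b and 91.9% of Grik5 came from 1 cell each, and 3 of 60 cells had Grid2ip and 7 had Grik3 at 10 TPM or more. Without the highest cell of each gene, taken from the set with its higher mean, Grik5 turned to 0.88 and Grin3b was listed at 0 in both sets, while Grik3 (-1.98) and Grid2ip (-1.24) stayed lower. Among the higher ones, Gabra3 (-0.080), Gabrr2 (-0.055), Gria1 (-0.16) and Grm4 (-1.25) then changed sign and Gabrb2 (0.14) fell under 2-fold, whereas Gabrg1 (1.81), Grin3a (1.42), Grm5 (1.3), Gabbr2 (2.05), Grid1 (2.06), Grik1 (1.73) and Grin1 (1.59) did not. Within OPC-marker cells alone, Gabrg1 was at 50.2 TPM at P6 and 4.82 TPM at P3 (3.14), while Grin3a (0.19) and Grm5 (0.96) no longer passed 2-fold. Among these OPC-marker cells 18 of 29 genes were higher, against 46.3% of 14281 genes, and 1, Grik4 (-1.54), was lower, against 20.1%. Grid2ip (1.69), Grik3 (1.14) and Grik5 (1.16) turned from lower to higher in sign there. A median of 5591 genes was seen per cell at P6 and 4124.5 at P3, and its part in the higher calls was not tested.

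In hGFAP-GFP cells at P4 and P6, Grm3, Grm5 and Gabrg1 were lower, and Gria1, Gabra2 and Gabra3 higher, than at P3. The highest cell of each held 57.8% of Gria1, 70.2% of Gabra2 and 84.6% of Gabra3 over the 61 later cells. Astrocyte-marker cells were 18 of 61 at P4 and P6 and 35 of 49 at P3, and interneuron-marker cells 16 and 4. Grm3 averaged 82.2 ± 327 TPM at P4 and P6 and 369 ± 681 TPM at P3 (SD over cells), a log2 ratio of -2.15. Grm5 averaged 17.6 TPM at P4 and P6 and 44.8 TPM at P3 (-1.3), and Gabrg1 15.1 and 31.7 TPM (-1.02). Within astrocyte-marker cells Grm5 was at 24.3 TPM at P4 and P6 and 62.5 TPM at P3 (-1.33), whereas Grm3, at 274 and 516 TPM (-0.91), and Gabrg1, at 43.5 and 43.7 TPM, did not pass 2-fold. When all cells were averaged on the log2 scale, Grm3 was at -2.53 and Grm5 at -1.23, Gabrg1 (-0.81) was under 2-fold, and 0 genes were higher.

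Over all cells, 11 of 26 genes were higher at P4 and P6, against 25.7% of 12564 genes, and 8 were lower, against 26.1%. The higher ones included Gabra3 (5.92), Gria1 (4.69), Gabra2 (3.91), Grik3 (3.77), Grm4 (3.58), Gabrb1 (2.02), Gabrq (1.76), Grik5 (1.73) and Gria4 (1.08), and 3 of the 61 later cells (4.9%) had Gabra3 at 10 TPM or more. The other lower ones were Gabbr2 (-2.63), Grik4 (-2.56), Gabra4 (-1.28), Gabrb2 (-1.14) and Grin1 (-1.06). Without the highest cell of each gene, Grin1 turned to 1.87, Gabrq was listed at 0 in both sets, and Gria4 (0.09), Grik5 (0.36), Gabra4 (-0.09), Gabrb2 (-0.84) and Gabrg1 (-0.67) fell under 2-fold. Grm3 (-1.97), Grm5 (-1.0), Gabra3 (3.37), Gria1 (3.54) and Gabra2 (2.31) kept their calls, and 4 genes were lower in place of 8. Within astrocyte-marker cells 5 of 19 genes were higher, against 26.2% of 11435 genes, and 9 were lower, against 35.5%.

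The other genes of these pathways were taken from 6 lists, whose counts stand against the share called over all genes. Between OPC-like and interneuron-like cells of PDGFRa-GFP cortex, where 21.4% of all genes were higher and 10.4% lower, 6 of 13 AMPA and kainate auxiliary subunits were higher and 2 lower (median log2 ratio 0.82), with Shisa7 (4.41), Shisa9 (4.37) and Neto1 (4.21) the largest. Cacng2, the stargazin gene that carries AMPA receptors to the surface, had 0 UMIs in OPC-like cells. Of glutamate uptake, synthesis and transport genes, 7 of 11 were higher and 1 lower (1.71), led by the glutamine transporter Slc38a3 (7.63) and the uptake carriers Slc1a1 (4.69) and Slc1a6 (4.37). Of GABA synthesis, uptake and breakdown genes, 1 of 6 was higher and 3 were lower (-2.89): Slc32a1 (-6.64), Gad2 (-5.51) and Gad1 (-5.26), the vesicle carrier and enzymes of GABA neurons, which are also interneuron markers that named the class. Excitatory scaffolds gave 7 higher and 3 lower of 16, inhibitory postsynaptic genes 2 and 0 of 6, and chloride transporters 3 and 0 of 5, among them the chloride exporter Slc12a4 (3.35) and the importer Slc12a2 (1.34).

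Between OPC-marker clusters of the dpi 25 tumour and of PDGFRa-GFP cortex, where 11.0% of all genes were higher and 16.2% lower, auxiliary subunits gave 1 higher and 3 lower of 14 (median -0.72), with Shisa9 at -5.05 and Cacng5 at 2.98. Scaffolds gave 2 higher and 7 lower of 21 (-0.37), with Camk2b, a kinase of the postsynaptic density, at 3.05 and Shank1 at -3.0. Inhibitory postsynaptic genes gave 0 and 3 of 6 (-0.60), glutamate handling genes 0 and 1 of 13 (-0.45), GABA handling genes 0 and 3 of 6 (-1.12) and chloride transporters 1 and 1 of 6 (0.15). The auxiliary subunits were near those shares. Between astrocyte-like and interneuron-like cells of hGFAP-GFP cortex, where 22.4% of all genes were higher and 15.3% lower, 6 of 9 glutamate handling genes were higher and 2 lower, led by Slc38a3 (7.65) and the astrocyte uptake carriers Slc1a3 (5.59) and Slc1a2 (5.47), which are astrocyte markers. The GABA handling genes gave 4 higher and 3 lower of 7, with the uptake carrier Slc6a11 at 4.63 and Gad2 at -5.18. Gad2, like Gad1 and Slc32a1 of this list, is an interneuron marker that named the class compared.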

How the data were processed

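The receptor genes and the lists of other genes were chosen with earlier results of these data known. Drop-seq values are a signal the authors deposited, UMIs brought to a total of 10000 in each cell. STAR is named for them in the submitters' processing notes. UMIs were recovered by division, and 100% of values were whole within 0.1. For 10x the authors deposited UMI counts from Cell Ranger, and for C1 cells TPM from RSEM, per the submitters' processing notes. The interval list the authors deposited pools both chromatin samples and holds for each interval a fold ratio over background with its −log10 p-value and q-value; the notes name CASAVA, Bowtie2, HOMER, MACS2 2.12 and the builds mm10 and rn5, and the intervals were read as mm10.

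Cells with at least 200 genes were clustered per library in scanpy 1.11.5 by the Leiden method (leidenalg 0.10.2, resolution 1) on 2000 variable genes that left out the receptor genes. A cluster was named X-like from marker lists, with at least 3 markers among its 50 leading genes. The OPC-marker clusters replaced a planned comparison of OPC-like clusters. Scrublet called 0 doublets at dpi 25 and so did not work there; no cell was removed for it. The labels give 6796 cells for dpi 25 and 2000 for hGFAP-GFP, where the tables hold 4955 and 815.

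UMIs were summed over cells and compared as CPM ratios with exact conditional 95% intervals (scipy 1.17.1), tested on simulated data. A gene was called with at least 20 UMIs, a ratio past 2-fold and an interval that leaves out 1. A count of 0 was set to a floor of 3 UMIs for bounds. Levels have exact Poisson intervals and shares exact binomial ones. Shares of cells were also read after thinning to 1000 UMIs, which left out 500 shallower PDGFRa-GFP cells. C1 sets were compared within a table as log2 ratios of mean TPM with a pseudocount of 1, for means of at least 1 TPM, with no interval; C1 cells took the class with the highest marker score. Up to 12 called receptor genes each way were to be named; where more were called, the rest were named too, except that a few receptor genes, counted throughout, are not reported here by name or drawn in the figures. Up to 3 called genes of each other list were named. Promoters and gene spans are from RefSeq, GRCm38.p6.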

Additional observations from a re-analysis of the deposited data

How the results depend on the processing

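No paired analysis was possible because each droplet group is 1 library and the numbers of the C1 cells mark cells, not animals. Over all comparisons and alternatives, 596 values of named receptor genes kept their direction and call, 122 kept only the direction and 16 changed sign. The 596 include values that could not lose a call by the way the setting works. These are 86 with no minimum of UMIs, 33 with no minimum of TPM and 33 with a pseudocount of 0.1 TPM. In the droplet libraries, thinning to 1000 UMIs, which keeps fewer UMIs to count, gave 1 higher and 5 lower for PDGFRa-GFP over hGFAP-GFP cortex, 7 lower for dpi 25 over hGFAP-GFP cortex, 1 lower for OPC-like over interneuron-like cells, 3 higher and 0 lower for astrocyte-like over interneuron-like cells, 0 higher for interneuron-like cells between the cortex libraries, and 9 lower for the OPC-marker clusters. Under thinning Gabrb2 for dpi 25 over PDGFRa-GFP cortex moved to 0.12 and Grin1 for the OPC-marker clusters to 0.013. A minimum of 50 UMIs gave 9 lower for dpi 25 over PDGFRa-GFP cortex, and no minimum gave 18 lower for dpi 25 over hGFAP-GFP cortex and 3 lower for astrocyte-like over interneuron-like cells. Leiden resolution 0.5 gave 2 lower for astrocyte-like over interneuron-like cells and 2 higher for interneuron-like cells between the cortex libraries, where keeping the receptor genes among the variable genes also gave 2 higher. Leaving out cycling-like clusters, chosen after seeing the data, gave 10 lower for the OPC-marker clusters. In the C1 sets, a mean over cells of log2(TPM + 1) gave 6 higher and 0 lower for PDGFRa-GFP and 0 higher and 3 lower for hGFAP-GFP, with Gabrb1 at -0.0464 and Grin1 at 0.19. A minimum of 10 TPM gave 6 higher for PDGFRa-GFP and 5 lower for hGFAP-GFP. Keeping 1 class, also chosen after seeing the data, gave 1 lower in OPC-marker cells, where Grid2ip (1.69), Grik3 (1.14) and Grik5 (1.16) changed sign, and 5 higher in astrocyte-marker cells, where Gria4 (-3.97), Grik5 (-1.04) and Grin1 (1.38) did. Leaving out the highest cell of each gene in the set with its higher mean, chosen after seeing the data, gave 4 lower for hGFAP-GFP, where Grin1 (1.87) changed sign, and for PDGFRa-GFP Gabra3 (-0.080), Gabrr2 (-0.055), Gria1 (-0.16), Grik5 (0.88) and Grm4 (-1.25) did. The cause of the other changes was not tested. Genes under 20 UMIs cannot be read at this depth, and with 1 library or set per group the spread between animals is unknown.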
